A study of Mus musculus with 45 samples.

Results

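The genes of oligodendrocytes and of the myelin they make were examined in RNA sequencing data of bulk brain tissue from adult Shank3-mutant mice. They were 33 of the 18135 genes in the deposited table, chosen by name and matched through Ensembl identifiers, with a mean normalized count of at least 10 required. All 33 were found and all passed, the lowest mean over the 45 samples being 176 (Ppp1r14a). The tissues were prefrontal cortex (here cortex), striatum and hippocampus of male C57BL/6J mice aged 13 weeks. In each region 5 samples were WT, 5 were heterozygous (Shank3-HT) and 5 were homozygous (Shank3-HM) for a Shank3 allele without exons 14 to 16. The labels call the homozygous mice knock-out and the table writes KI for the same mice. No driver that limits the deletion to a cell type, no second allele and no treatment is stated for any group. Each sample is bulk tissue. With 5 mice per group the 3 regions may come from the same mice, but the labels tie no sample to a mouse, and the tests between regions treat all samples as independent.

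Oligodendrocytes wrap axons of the central nervous system in myelin. They arise from precursor cells that carry the growth factor receptor PDGFRA and the proteoglycan NG2 (the product of Cspg4), and that go on dividing in the adult brain. A precursor that leaves the cell cycle passes through a short stage marked by the receptor GPR17 and by BCAS1 before the genes of compact myelin are switched on by the transcription factors SOX10 and MYRF. White matter tracts run through the striatum as bundles, whereas the prefrontal cortex is grey matter with sparse myelin. Shank3 encodes a scaffold of excitatory synapses in neurons.

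The 33 genes were read in groups by role. The 4 precursor genes were Pdgfra, Cspg4, Gpr17 and Bcas1. The other 29 genes, called myelin genes below, were 9 genes of myelin or oligodendrocyte membrane proteins (Mbp, Mog, Mag, Mobp, Mal, Cldn11, Opalin, Tspan2 and Gjb1), 4 genes of the cytoskeleton and its neighbours (Cnp, Ermn, Anln and Ppp1r14a), 5 transcription factors (Myrf, Sox10, Olig1, Olig2 and Nkx6-2), 6 genes of lipid synthesis and metabolism (Ugt8a, Fa2h, Aspa, Enpp6, Trf and Car2) and 5 further oligodendrocyte genes (Gpr37, Hapln2, Ndrg1, Evi2a and Tmem88b). Olig1, Olig2 and Sox10 are active along the whole lineage, precursors included, and not in myelinating cells alone.

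Values are the authors' DESeq2-normalized counts, which correct for the depth of each library but leave its read number unknown. Their sum per sample ran from 26118607 to 29568983. Shank3 itself had a mean of 12317 ± 606 (SD, n = 5) in WT striatum, 8725 ± 581 in Shank3-HT and 5735 ± 667 in Shank3-HM striatum, and the same order of WT, HT and HM held in cortex and hippocampus. The tissue labels were checked with neuron genes. All 10 striatal spiny neuron genes tested were higher in WT striatum than in WT cortex, with a median log2 difference of 5.63, and all 8 cortical pyramidal genes were lower. In sample 2 of Shank3-HM cortex the summed spiny neuron genes lay 19.4% of the way from the WT cortex to the WT striatum mean, against -0.381% to 0.527% in the other 14 cortical samples. In striatum, WT sample 5 and Shank3-HT samples 3 and 5 lay at 79.1%, 82.8% and 84.5% on the same scale, below the other 12 striatal samples.

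Per kilobase of the longest coding transcript, which lets levels of different genes be compared, Mbp, the myelin basic protein that holds the cytoplasmic faces of the sheath together, ranked first of the 33 in all 3 regions. Its length-scaled level was 7448 ± 809 normalized counts per kilobase in WT cortex, 15008 ± 443 in hippocampus and 20669 ± 2230.2 in striatum (SD, n = 5). Mobp, another basic protein of myelin, came second in every region, with 10779.6 ± 1179.7 per kilobase in striatum. Cnp, a cytoplasmic enzyme of the inner sheath, had rank 4 in cortex and 3 in the other regions. Of the precursor genes, 2 sat far lower, with Pdgfra at 211 ± 6.82 and Cspg4 at 66.1 ± 5.83 per kilobase in striatum, ranks 30 and 33. Between cortex and striatum the order of Pdgfra moved from rank 19 to 30 and that of Gpr17 from 14 to 23, while 20 of the 29 myelin genes moved up. Bcas1 kept rank 7 in both, at 828 ± 85.8 and 2155 ± 209.9 per kilobase. The lengths come from GENCODE vM21 and not from the transcripts that Salmon weighted, so these levels rank the genes only roughly.

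Mobp and Ermn are shown by sequence because they were among the members that differed most between regions, and Pdgfra and Cspg4 because they differed least between striatum and cortex. Mobp lies on chromosome 9, 120149707 to 120181484, plus strand of GRCm38, Ermn, which encodes a cytoskeletal protein of the mature cell, on chromosome 2, 58045113 to 58052864, minus strand, Pdgfra on chromosome 5, 75152292 to 75198215, plus strand and Cspg4 on chromosome 9, 56865033 to 56899870, plus strand. RefSeq windows (GRCm38.p6) of 300 bases around the start of transcription were at hand for 22 of the 33 genes, and each is given 5′ to 3′ on the strand of the gene, with matches to the SOX letters ACAAAG and ACAATG on either strand in capitals.
Mobp promoter window, chr9:120149492-120149791, plus strand: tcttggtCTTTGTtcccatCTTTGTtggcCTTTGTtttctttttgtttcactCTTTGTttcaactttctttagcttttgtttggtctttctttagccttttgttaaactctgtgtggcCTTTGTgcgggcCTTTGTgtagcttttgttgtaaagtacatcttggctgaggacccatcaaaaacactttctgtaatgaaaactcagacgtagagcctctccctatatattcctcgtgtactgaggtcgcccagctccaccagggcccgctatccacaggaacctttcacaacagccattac
Ermn promoter window, chr2:58052815-58053114, minus strand: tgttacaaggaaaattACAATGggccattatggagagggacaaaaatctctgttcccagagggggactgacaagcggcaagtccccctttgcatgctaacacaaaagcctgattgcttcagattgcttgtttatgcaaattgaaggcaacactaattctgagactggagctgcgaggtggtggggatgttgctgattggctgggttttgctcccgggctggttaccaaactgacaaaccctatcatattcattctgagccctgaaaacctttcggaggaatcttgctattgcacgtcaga
Pdgfra promoter window, chr5:75152001-75152300, plus strand: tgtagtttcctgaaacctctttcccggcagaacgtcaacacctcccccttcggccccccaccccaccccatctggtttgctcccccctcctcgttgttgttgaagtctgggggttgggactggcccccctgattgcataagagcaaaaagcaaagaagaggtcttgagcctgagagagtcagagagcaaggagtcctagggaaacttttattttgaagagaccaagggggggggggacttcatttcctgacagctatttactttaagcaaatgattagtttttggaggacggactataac
Cspg4 promoter window, chr9:56864854-56865153, plus strand: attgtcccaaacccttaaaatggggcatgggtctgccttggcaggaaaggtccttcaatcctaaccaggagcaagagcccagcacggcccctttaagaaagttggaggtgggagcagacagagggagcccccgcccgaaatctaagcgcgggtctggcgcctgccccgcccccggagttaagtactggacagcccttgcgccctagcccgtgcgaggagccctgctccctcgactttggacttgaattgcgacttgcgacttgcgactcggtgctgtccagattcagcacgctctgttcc

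The Mobp window held 6 SOX matches, written CTTTGT because they lie on the opposite strand. The Ermn window held 1, and the windows of Pdgfra and Cspg4 held 0. The 22 genes had 28 windows, since some have several starts. A SOX match was present in 13 of these 28 windows and in 28.6% of all 32851 windows of the table. The MYRF letters CTGGCAC or CTGGTAC were present in 6 of the 28 (windows of Hapln2, Mag, Cnp, Mog and Opalin) and in 7.10% of all windows, and the E-box letters CAGCTG or CATATG in 6 of the 28 and in 19.8%. Overlapping windows of Mag held the same SOX match and the same MYRF match. Counted by gene, 11 of the 22 had a SOX match, 5 a MYRF match and 5 an E-box match, with no such count made for all genes. Both strands were searched, and matches of different motifs were allowed to overlap. The windows of Pdgfra, Cspg4, Mobp and Ermn held no MYRF or E-box match. These matches are descriptions of letters in a short window, and were not tested.

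The first comparison asked how the lineage differs between regions of WT mice. Most myelin genes were highest in striatum, intermediate in hippocampus and lowest in cortex, whereas Pdgfra and Cspg4 were highest in hippocampus and did not differ detectably between striatum and cortex. Between WT striatum and WT cortex 31 of the 33 genes were higher in striatum and 0 were lower (limma, adjusted p under 0.05), where 30.0% of all 16708 genes tested were higher and 29.3% lower. The median log2 difference was 1.29 over the 29 myelin genes, 0.11 over the 4 precursor genes and 0.011 over all genes. Differences are on the log2(value + 1) scale throughout and are followed by the standard error of the fit. In bulk tissue more cells of a type and more RNA per cell cannot be told apart.

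Mbp counts in WT cortex samples 1 to 5 were 32622, 35170.2, 37007, 41706 and 32126. Mbp counts in WT hippocampus were 69053, 74879, 72797, 71898 and 71342, and in WT striatum they were 92206, 89132, 114023, 93640.0 and 106745. The 3 regions did not overlap for Mbp, the lowest hippocampal sample lying above the highest cortical one and the lowest striatal sample above the highest hippocampal one. Striatum exceeded cortex by 1.47 ± 0.11, a 2.78-fold difference (adjusted p = 2.41e-15), and hippocampus by 0.46 ± 0.11 (adjusted p = 0.000459). Reads of the Golli transcripts, which start upstream in the same gene and are also made outside the lineage, are part of the Mbp value.

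Mog, a protein of the outermost myelin surface, gave 626, 629.9, 706, 713 and 516 in WT cortex. Hippocampal Mog was 1396, 1312, 1357, 1194 and 1312, and striatal Mog was 1578, 1356, 2092, 1476 and 1767. Cortex stood below both other regions in every sample, while hippocampus and striatum overlapped. Mog was 1.37 ± 0.15 higher in striatum than in cortex (adjusted p = 1.54e-10), and its difference between striatum and hippocampus did not pass at 0.32 ± 0.15 (95% interval 0.014 to 0.62, adjusted p = 0.0691). Sox10, the factor needed for the whole lineage after its specification, gave 704, 713, 729.8, 683 and 751 in WT cortex. Its hippocampal counts were 1260.3, 1281, 1207, 1112 and 1207 and its striatal counts 1199, 1329.7, 1405, 1273 and 1547. Sox10 thus separated cortex from the other regions and not those from each other, with 0.91 ± 0.098 between striatum and cortex and 0.15 ± 0.098 between striatum and hippocampus (adjusted p = 9.79e-11 and 0.192).

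The 3 genes with the smallest adjusted p between striatum and cortex among the members were Mobp, Mbp and Ermn. Mobp was 9048, 9747, 10723, 12772 and 8918 in WT cortex, 20270.3, 23406, 23878, 24876 and 23610.5 in hippocampus and 31879, 32029, 41364, 35574 and 36263 in striatum. Ermn was 762, 906, 877, 1212 and 874 in cortex, 1616, 2196, 1968, 2177 and 2296 in hippocampus and 2386, 2508, 3137, 2843 and 3155 in striatum. Neither gene overlapped between regions. Mobp differed by 1.80 ± 0.13 and Ermn by 1.61 ± 0.12 between striatum and cortex (adjusted p = 7.57e-16 and 2.52e-15).

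Every one of the 9 membrane protein genes was higher in striatum than in cortex, from 1.04 for the tetraspanin gene Tspan2 to 1.80 for Mobp, with 1.51 for Cldn11, which seals the layers of the sheath, and 1.42 for the gap junction gene Gjb1. The 4 cytoskeleton genes were 1.80 (Anln), 1.61 (Ermn), 1.26 (Cnp) and 1.25 (Ppp1r14a) higher. Of the lipid and metabolism genes, Fa2h, which hydroxylates the fatty acids of myelin lipids, was 1.46 higher, and Ugt8a, which adds galactose to ceramide, 1.29 higher. Trf, the iron carrier transferrin, was 1.46 and Aspa, which releases acetate from N-acetylaspartate, 1.17 higher. Enpp6, a choline phosphodiesterase of newly forming oligodendrocytes, had 1.62 ± 0.19. Car2, a carbonic anhydrase, had 0.42 ± 0.065 and so the smallest of the 6. All of these passed the test.

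The transcription factors spread over a wide range. Nkx6-2 and Myrf, factors of maturing cells, were 1.38 ± 0.18 and 1.24 ± 0.12 higher in striatum than in cortex. Sox10 was 0.91 ± 0.098 higher, and Olig1 and Olig2, which precursors also express, were 0.42 ± 0.091 and 0.29 ± 0.093 higher (adjusted p = 0.000121 and 0.00645). The 95% interval was 0.23 to 0.60 for Olig1 and 0.10 to 0.48 for Olig2, and differences between genes were not tested. The 5 further genes ranged from 0.86 (Ndrg1) to 1.44 (Hapln2, a link protein at nodes of Ranvier).

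**Figure D1:**
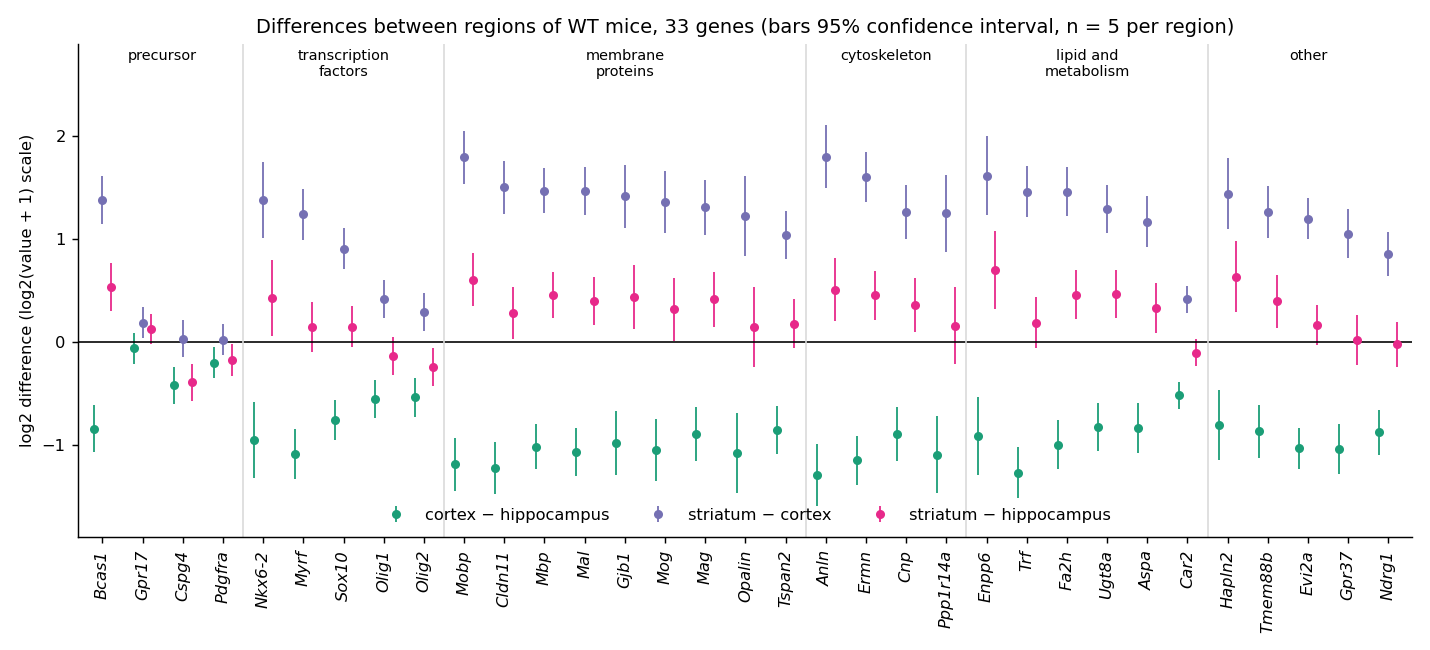
Log2 differences between regions of WT mice for the 33 genes, grouped by role, with each point 1 gene in 1 comparison, bars the 95% confidence interval and n = 5 samples per region. Myelin genes other than Olig1, Olig2 and Car2 lie well above 0 for striatum minus cortex and all lie below 0 for cortex minus hippocampus, while Pdgfra, Cspg4 and Gpr17 lie within 0.5 of 0 in all 3 comparisons.

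Pdgfra, the receptor through which precursors are kept dividing, was 1355, 1541, 1289, 1443 and 1480.3 in WT cortex and 1359, 1682, 1688, 1747 and 1708 in WT hippocampus. Its striatal counts were 1376, 1420.0, 1484, 1451 and 1486. The cortical and striatal samples overlapped over nearly their whole range, and 4 of the 5 hippocampal samples lay above all of them. Pdgfra differed by 0.024 ± 0.076 between striatum and cortex (95% interval -0.13 to 0.18, adjusted p = 0.805), was -0.20 in cortex against hippocampus (adjusted p = 0.027) and -0.18 in striatum against hippocampus (adjusted p = 0.0453). Cspg4 was 492, 549.7, 409, 543 and 656 in WT cortex and 739.9, 653, 634, 733 and 756 in WT hippocampus. Striatal Cspg4 was 468, 570.2, 524, 591 and 529. Hippocampus was again highest, with -0.42 in cortex against hippocampus (adjusted p = 0.000114) and -0.39 in striatum against hippocampus (adjusted p = 0.000229), and striatum and cortex differed by 0.030 ± 0.089 (95% interval -0.15 to 0.21, adjusted p = 0.790). The Pdgfra calls were not stable. They were lost on leaving out any of 6 single samples in cortex against hippocampus (adjusted p up to 0.0885) and any of 8 in striatum against hippocampus (up to 0.110). Pericytes also make Cspg4 and fibroblasts of vessels also make Pdgfra, so neither gene is specific to precursors.

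Gpr17, which marks the committed stage after the precursor, was 1382, 1458, 1323, 1663 and 1699.8 in WT cortex and 1424, 1436, 1608, 1792 and 1589.5 in WT hippocampus. In WT striatum Gpr17 was 1567, 1559.8, 1767, 1835 and 1832. All 3 regions overlapped, and only striatum against cortex passed, at 0.19 ± 0.074 (adjusted p = 0.027), against -0.063 ± 0.074 for cortex against hippocampus and 0.13 ± 0.074 for striatum against hippocampus. That call was lost without any of 6 single samples (adjusted p up to 0.108). Bcas1, whose product is made in early myelinating cells and kept in myelin, was 2285, 2607, 2356, 2798 and 2176 in WT cortex and 4362, 4849.9, 4351, 4032 and 4274 in WT hippocampus. Striatal Bcas1 was 6029, 6135, 7324, 5734 and 6589. The 3 regions were separate for Bcas1, as they were for Mbp, with 1.38 ± 0.12 between striatum and cortex, -0.84 ± 0.12 between cortex and hippocampus and 0.54 ± 0.12 between striatum and hippocampus (adjusted p = 7.56e-14, 5.46e-08 and 0.000105). Of the 4 precursor genes Bcas1 alone thus fell inside the range of the 29 myelin genes between striatum and cortex, 0.29 to 1.80.

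In cortex against hippocampus 32 of the 33 genes were lower in cortex and 0 were higher, where 23.3% of all genes were lower and 23.3% higher. Gpr17 alone did not pass. The median was -0.98 over the myelin genes and -0.31 over the precursor genes. The smallest adjusted p values belonged to Evi2a, Trf and Cldn11. Evi2a, a transmembrane protein gene, was 286, 371, 296, 322 and 317 in WT cortex and 661, 683, 649, 615 and 647 in WT hippocampus. Trf was 2874, 3013, 2691, 3095 and 2311 in cortex and 7905, 6785, 5756, 7090.2 and 6274 in hippocampus. Cldn11 was 1379, 1163, 1459, 1578 and 1242 in cortex and 3296, 3094, 3219, 3352 and 2918 in hippocampus. All 3 were lower in cortex without overlap, with differences of -1.03 ± 0.098, -1.27 ± 0.12 and -1.23 ± 0.13 (adjusted p = 5.67e-12, 1.11e-11 and 6.39e-11). Choroid plexus, which also makes Trf, was present in hippocampal samples to a varying degree. The summed choroid plexus genes ran from 3166 to 124065 in WT hippocampus and from 76.2 to 158 in WT cortex, and all 7 genes of that list were lower in cortex, and its part in the Trf difference was not tested.

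Between striatum and hippocampus the picture was mixed. Of the 33 genes 16 were higher in striatum and 3 were lower, where 27.8% of all genes were higher and 28.3% lower, and the median was 0.33 over the myelin genes and -0.025 over the precursor genes. The 3 that were lower were Cspg4, Olig2 (-0.24 ± 0.093, adjusted p = 0.0236) and Pdgfra. The higher genes included Mobp (0.61 ± 0.13), Enpp6 (0.70 ± 0.19), Hapln2 (0.64 ± 0.17), Ugt8a (0.47 ± 0.12) and Fa2h (0.46 ± 0.12). Myrf, Sox10, Olig1, Trf, Car2, Opalin, Tspan2, Gpr37, Ndrg1 and Evi2a were among the 14 that did not pass, with differences between -0.14 and 0.19. With all 3 genotypes averaged, which gives 15 samples per region, the count that passed went from 19 to 29, of which 27 were higher in striatum, where 72% of all genes passed in that fit, and the myelin median was 0.56.

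Other genes of the same stages were listed to see whether the 33 were typical. Of 30 further myelin genes 27 were higher and 1 was lower in WT striatum than in WT cortex, with a median of 1.02 and the smallest p for Efnb3 (2.01 ± 0.14). Of 15 further precursor genes tested 5 were higher and 4 lower, with a median of 0.20, the smallest p belonging to Cacng4 (2.67) and Susd5 (-1.25). Of 10 genes of the premyelinating stage 3 were higher and 2 lower (median 0.030), with Rras2 at -1.30 and Kif19a at 1.51. Several genes of these last lists are also made by neurons. Cholesterol is a main lipid of myelin, and of its 22 synthesis genes 0 were higher and 19 lower in striatum, with a median of -0.53, and Hmgcs1 at -0.88. The cholesterol genes, which neurons and astrocytes use too, therefore ran opposite to the myelin genes in this comparison.

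Genes of other cell types were set beside the myelin genes. From WT cortex to WT striatum 9 of 10 astrocyte genes were lower and 0 higher, 9 of 10 general neuron genes were lower and 1 was higher, 7 of 10 microglia genes were higher and 0 lower, and of 8 endothelial genes 0 were called in either direction. The medians were -0.29, -0.75, 0.26 and -0.063. Schwann cells, the myelinating cells of peripheral nerves, share Mbp, Mag, Gjb1 and Sox10 with oligodendrocytes. The Schwann cell gene Prx had 14.1 to 22.3 normalized counts in WT striatum, far below Mbp. Of the 5 Schwann cell genes listed 3 passed the filter on low values, 2 were higher in striatum, and the summed level was 164 to 582 in cortex and 347 to 1087 in striatum, most of it Egr2, which neurons also express.

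The second comparison asked whether the lineage changed with Shank3 genotype in each region. None of the 33 genes passed the adjusted threshold in any of the 6 comparisons of Shank3-HT or Shank3-HM with WT mice (limma, 0 of 33 in each). The share of all genes that passed was 0% in Shank3-HT cortex, 0.0121% in Shank3-HM cortex, 0.00603% in Shank3-HT hippocampus, 0.00603% in Shank3-HM hippocampus, 0.00607% in Shank3-HT striatum and 0.182% in Shank3-HM striatum. Before adjustment the number of the 33 genes with p under 0.05 was 3, 3, 2, 7, 21 and 2 in the same order, where 2.68%, 5.49%, 5.26%, 4.73%, 7.43% and 7.43% of all genes reached it. Shank3-HT striatum therefore held the most. The 2 mutant genotypes of a region were compared with the same 5 WT samples, so their results are not independent.

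In Shank3-HT striatum all 33 differences from WT were above 0, with a median of 0.34 over the 29 myelin genes, 0.092 over the 4 precursor genes and -0.0058 over all genes. Of the 33, 21 had an unadjusted p under 0.05 and a higher level in the mutant, where 4.17% of all genes did. The smallest adjusted p was 0.632, so none is called. Mbp in Shank3-HT striatum was 116975, 131043, 159497, 94782 and 124377, against the WT values of 89132 to 114023 given above. Sample 3 was highest, samples 1, 2 and 5 also lay above every WT sample, and sample 4 lay among the WT values. Mbp differed by 0.32 ± 0.13 (95% interval 0.055 to 0.59, adjusted p = 0.651).

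The 3 genes with the smallest p in this comparison were Mal, Car2 and Trf. Mal, a proteolipid that sorts membrane in myelinating cells, was 7702, 7051, 10327, 8067 and 8577 in WT and 10180.1, 11747, 13670.0, 8411 and 10994 in Shank3-HT striatum. Car2 was 3740.0, 4104, 4420.4, 3908 and 4406 in WT and 4869, 4985, 5623, 4179.7 and 4889.9 in Shank3-HT striatum. Trf was 7053, 7656, 8698, 7309 and 7721 in WT and 9399, 11069.6, 13468, 7122 and 10421 in Shank3-HT striatum. Sample 4 of Shank3-HT was the lowest of its group in each, and the groups overlapped for all 3 genes, for Car2 and Trf through that sample alone. The differences were 0.39 ± 0.13, 0.25 ± 0.087 and 0.39 ± 0.14 (95% intervals 0.12 to 0.67, 0.068 to 0.43 and 0.10 to 0.69, adjusted p = 0.632 for all 3).

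Mog was 2166, 2374, 3052, 1502 and 1910.2 in Shank3-HT striatum. Sox10 was 1544, 1769, 1934, 1375 and 1684. In both genes the samples spread widely, with sample 3 highest and sample 4 lowest. Mog differed from WT by 0.39 ± 0.16 and Sox10 by 0.29 ± 0.12 (adjusted p = 0.656 and 0.651). Pdgfra was 1306, 1443, 1490.4, 1349 and 1688 in Shank3-HT striatum. Cspg4 in the same samples was 497, 528, 559.8, 503 and 615. The Pdgfra samples spread to both sides of the WT values, and the Cspg4 samples overlapped WT. Gpr17 was 1834, 2025, 1977, 1744 and 2065. Bcas1 was 7186, 8460.1, 9790.4, 5783 and 7849.6. For both genes 3 of the 5 samples lay above every WT sample. The differences were 0.0067 ± 0.067 (95% interval -0.13 to 0.15), 0.011 ± 0.078 (-0.15 to 0.18), 0.17 ± 0.073 (0.019 to 0.33) and 0.28 ± 0.14 (-0.0097 to 0.57), with adjusted p from 0.656 to 0.989. No member had all 5 Shank3-HT samples outside the WT range, where 0.971% of all genes did.

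**Figure D2:**
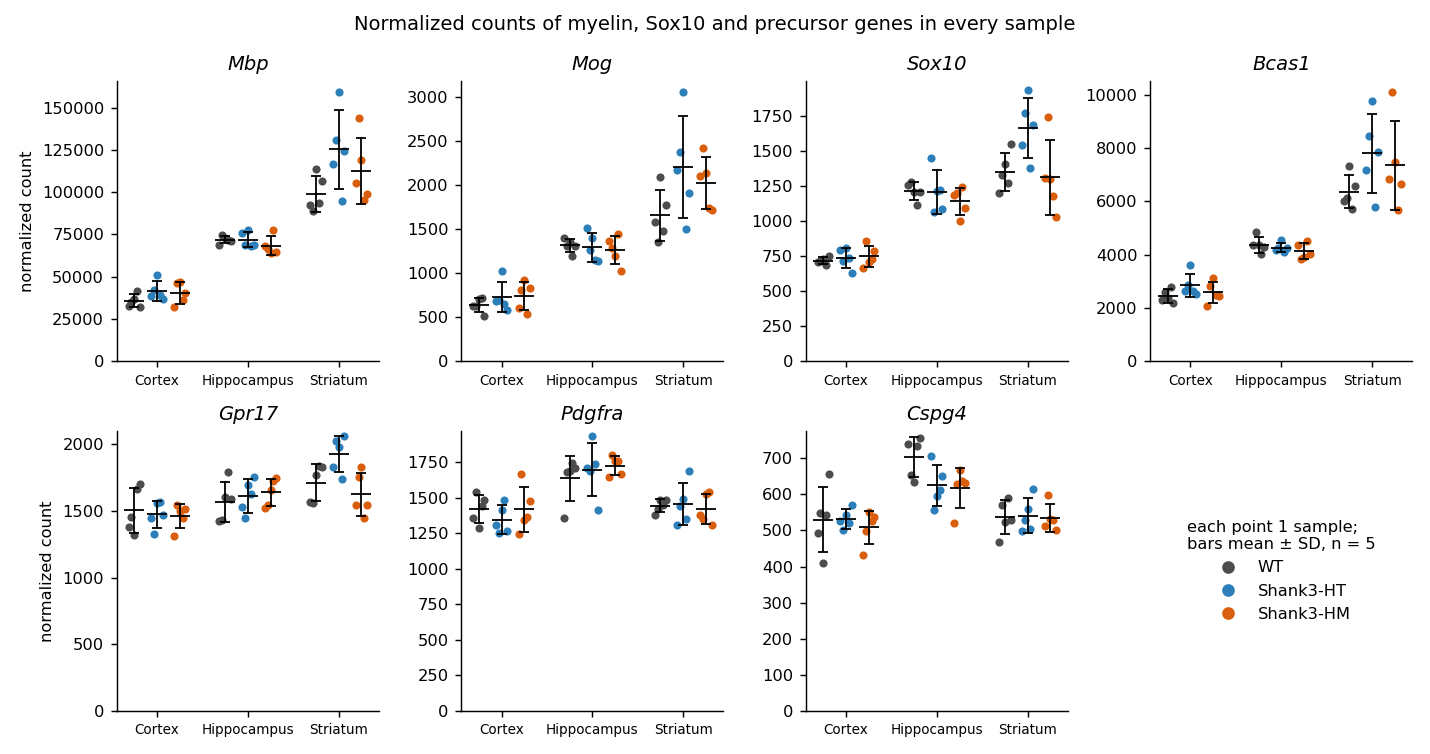
Normalized counts of Mbp, Mog, Sox10, Bcas1, Gpr17, Pdgfra and Cspg4 in all 45 samples, with each point 1 sample, colours the genotype and bars the mean ± SD (n = 5). Mbp, Mog, Sox10 and Bcas1 step up from cortex to hippocampus, Mbp and Bcas1 step up again in striatum with a wide spread in the mutants, and Pdgfra and Cspg4 are highest in hippocampus.

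The Shank3-HT difference in striatum varied with single libraries. Sample 3 had the highest value of the 15 striatal samples for 25 of the 29 myelin genes and for 0 of the 4 precursor genes. Sample 5 of the same group was highest for 3 of the 4 precursor genes and 1 myelin gene. The WT samples 1 and 2 were lowest of the 15 for 10 myelin genes each. Without sample 3 of Shank3-HT the myelin median was 0.24 and 6 of the 33 genes had an unadjusted p under 0.05 (5.82% of all genes), and without sample 4 the values were 0.42 and 28 (10.9%). Leaving out WT sample 2 gave 12 (5.66%). None of the 33 passed the adjusted threshold in any of these fits. Sample 3 also had a low share of spiny neuron genes, at 82.8% of the WT striatum mean after subtraction of the cortex mean, and sample 5 was at 84.5%, against 95.4% to 108% in the other 3. WT sample 5, at 79.1%, had a lower share still, with Mbp at 106745. Sample 5 of Shank3-HT also had high choroid plexus genes, their sum being 69131 against 459.8 to 1558 in the other striatal samples. The part of these libraries' tissue content in the result was not tested.

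**Figure D3:**
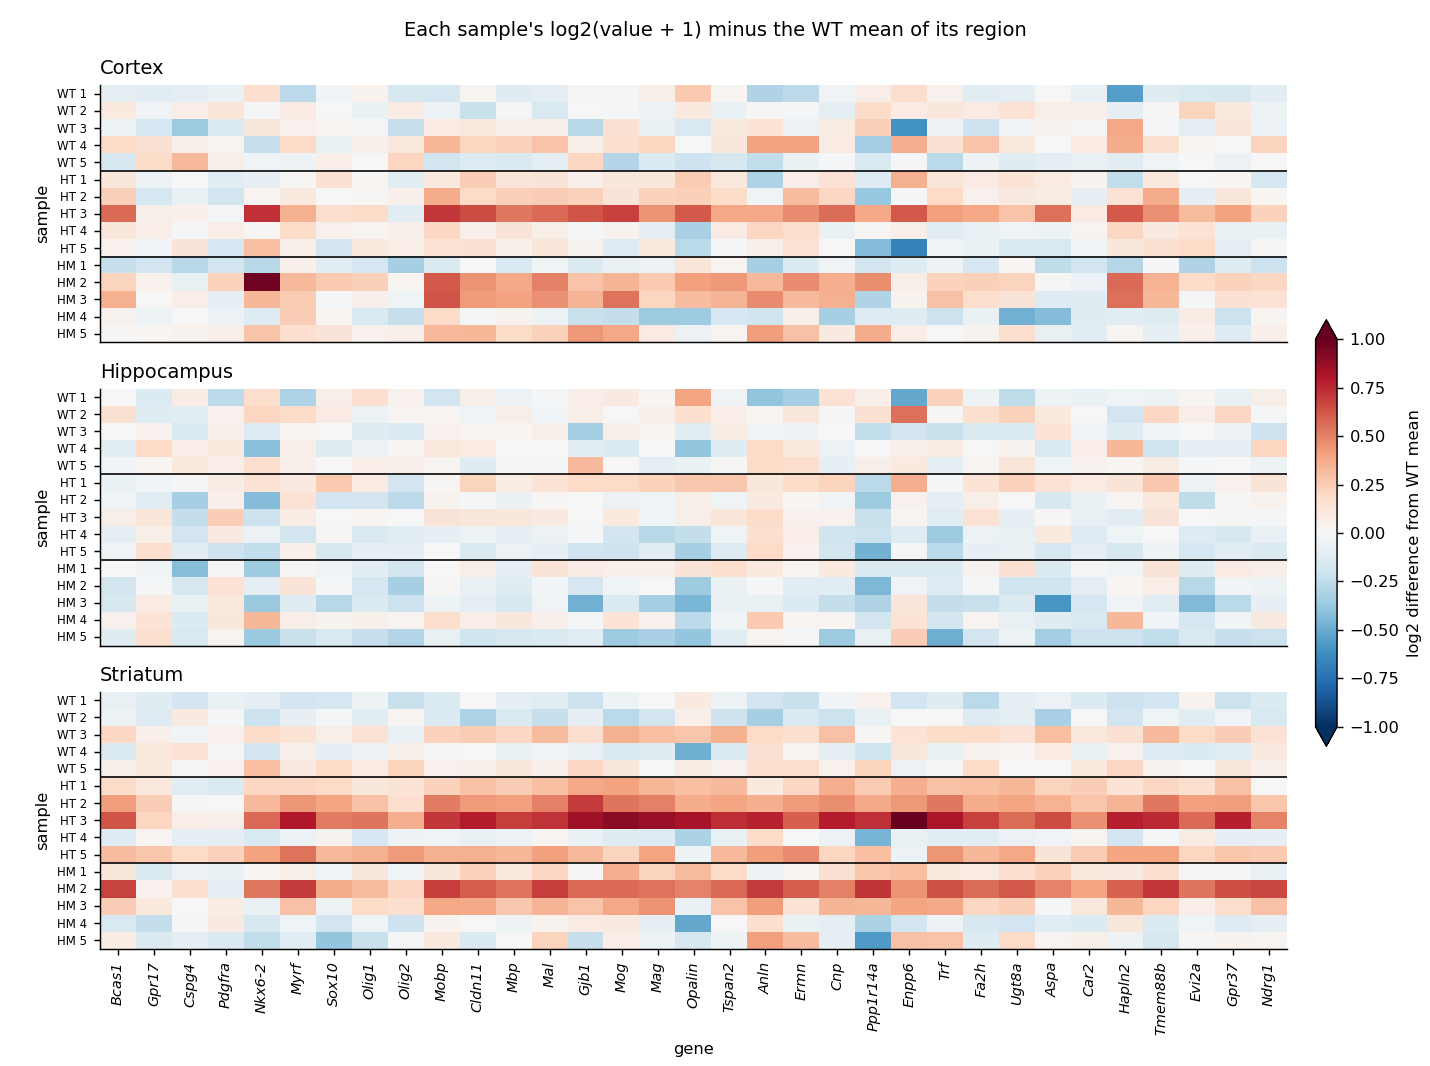
Difference of each sample from the WT mean of its region on the log2(value + 1) scale, for the 33 genes (columns, grouped by role) and 15 samples per region (rows), with values past 1 in either direction drawn at the end of the colour scale. Whole rows are shaded alike across myelin genes, above all sample 3 of Shank3-HT and sample 2 of Shank3-HM in striatum and sample 3 of Shank3-HT in cortex, while the columns of Pdgfra and Cspg4 are pale in those rows.

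Further myelin genes resembled the 33. In Shank3-HT striatum all 30 genes of the further myelin list had a difference above 0, 20 of them with an unadjusted p under 0.05, with a median of 0.30 and 0 called. The median was 0.11 for the further precursor genes, 0.11 for the premyelinating genes and -0.0025 for cholesterol synthesis, with 0 called in each. Of the 10 astrocyte genes all had a difference above 0 (median 0.10, 4 with an unadjusted p under 0.05), the microglia and endothelial medians were 0.029 and 0.026, and all 10 spiny neuron genes had a difference below 0 (median -0.068), again with 0 called in each list.

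In Shank3-HM striatum 29 of the 33 differences were above 0, with a median of 0.17 over the myelin genes and -0.016 over the precursor genes. Mbp was 105764, 144098, 118896, 95493 and 99220.1 in Shank3-HM. Mog was 2100.2, 2416, 2139.7, 1738 and 1714. Sample 2 was highest in both, and the groups overlapped. Mbp differed from WT by 0.17 ± 0.13 (95% interval -0.095 to 0.44) and Mog by 0.29 ± 0.16 (-0.033 to 0.62). Anln, an actin-binding protein that builds septin filaments in the sheath, was 1375, 1243, 1802, 1746 and 1758 in WT and 1516, 2549.8, 2092, 1763 and 2088 in Shank3-HM striatum. Mal was 9530.5, 13395, 10455, 8498 and 9635 in Shank3-HM. Mobp was 38186, 56800.5, 46203, 36147 and 37806 in Shank3-HM. These 3 had the smallest p, and all overlapped WT. Their differences were 0.33 ± 0.14, 0.30 ± 0.13 and 0.27 ± 0.13 (adjusted p = 0.627, 0.627 and 0.696).

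Sox10 ran otherwise, at 1304, 1742, 1302, 1182 and 1029 in Shank3-HM striatum and a difference of -0.059 ± 0.12 (95% interval -0.30 to 0.19), the only one of the 29 myelin genes below 0. Pdgfra was 1375, 1347, 1523, 1539 and 1305 in these samples. Cspg4 was 513, 599, 532, 529.5 and 501. Neither stood apart from WT. Gpr17 was 1548, 1755, 1834, 1449.5 and 1546. Bcas1 was 6843, 10123, 7499.6, 5689 and 6657. Bcas1 resembled the myelin genes in that sample 2 was highest, and all 4 genes overlapped WT. In the order Pdgfra, Cspg4, Gpr17 and Bcas1 the differences were -0.028 ± 0.067, -0.0032 ± 0.078, -0.076 ± 0.073 and 0.19 ± 0.14. Without sample 2 the differences were 0.067 for Bcas1, 0.082 for Mbp and 0.16 for Mobp. Sample 2 decided much of the myelin median, which was 0.050 without it, with 0 of the 33 genes at an unadjusted p under 0.05 (6.48% of all genes). Non-overlap with WT was found for 0 members, where 1.86% of all genes showed it. Of the further myelin genes 28 of 30 had a difference above 0 (median 0.16) and none was called.

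In cortex most myelin genes had a difference above 0 in both mutants, and none passed. The myelin median was 0.12 in Shank3-HT and 0.085 in Shank3-HM cortex, and the precursor medians were -0.0025 and -0.022. Mbp was 38614, 41926, 51148, 38969.9 and 36868 in Shank3-HT and 31979, 46238, 46973, 36345 and 40489 in Shank3-HM cortex. Mog was 685, 692, 1021, 649 and 581 in Shank3-HT and 604, 804, 925, 538 and 830.2 in Shank3-HM cortex. Both genes overlapped WT. Sox10 was 795, 714, 805, 737 and 628 in Shank3-HT and 661, 857, 711, 725 and 784 in Shank3-HM cortex. Sox10 overlapped WT as well. The differences from WT were 0.21 ± 0.11 and 0.17 ± 0.11 for Mbp, 0.17 ± 0.15 and 0.19 ± 0.15 for Mog, and 0.034 ± 0.077 and 0.057 ± 0.077 for Sox10. The smallest p in Shank3-HT cortex belonged to Tmem88b, Cldn11 and Mobp, at 0.23 ± 0.10, 0.26 ± 0.12 and 0.31 ± 0.14, and in Shank3-HM cortex to Myrf, Car2 and Mobp, at 0.21 ± 0.083, -0.12 ± 0.047 and 0.32 ± 0.14. Their adjusted p was 0.9997 in the first group and 0.877 or more in the second.

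Tmem88b was 820.1, 899, 879, 994 and 868 in WT and 952, 1154, 1224, 945 and 988 in Shank3-HT cortex. Cldn11 was 1608, 1545, 2133, 1403 and 1503 in Shank3-HT cortex. Mobp was 10839.5, 13112, 16539, 11735 and 11245 in Shank3-HT and 9193, 15537, 15707, 11609 and 12674 in Shank3-HM cortex. Sample 3 of Shank3-HT was highest for Tmem88b, Cldn11 and Mobp, and in Shank3-HM samples 2 and 3 were highest for Mobp. Myrf was 764, 971, 943, 1045 and 884 in WT and 949, 1146, 1091, 1087 and 1028 in Shank3-HM cortex. Car2 was 2927, 3194, 3108, 3256 and 2920.4 in WT and 2698, 2960.1, 2834, 2836 and 2866 in Shank3-HM cortex. Car2 alone of these was lower in the mutant, at -0.12.

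Among the precursor genes of the cortex, Pdgfra was 1310.4, 1251, 1410.2, 1487 and 1262 in Shank3-HT and 1247, 1664, 1343, 1362 and 1473 in Shank3-HM cortex. Cspg4 was 525, 500.1, 542, 520.4 and 571 in Shank3-HT and 431, 499, 549.8, 525 and 536 in Shank3-HM cortex. Gpr17 was 1448, 1325, 1562, 1568 and 1469 in Shank3-HT and 1311, 1547, 1497, 1448 and 1516 in Shank3-HM cortex. Each overlapped WT, with differences from -0.081 (Pdgfra, Shank3-HT) to 0.020 (Cspg4, Shank3-HT). Bcas1 was 2633, 2865, 3599, 2639 and 2509.7 in Shank3-HT and 2076, 2835, 3111, 2497 and 2448 in Shank3-HM cortex, with differences of 0.21 ± 0.11 and 0.078 ± 0.11. Sample 3 of Shank3-HT was the highest of the 15 cortical samples for 21 of the 29 myelin genes and 1 of the 4 precursor genes, and sample 2 of Shank3-HM, the library with raised spiny neuron genes, for 6 and 1. Sample 3 of Shank3-HT also had the highest summed choroid plexus genes of the cortical samples, 1135, with sample 2 of Shank3-HM next at 739, and their part in the result was not tested. Without sample 3 of Shank3-HT the myelin median of that group was 0.046, and without sample 2 of Shank3-HM it was 0.009, with 0 and 1 of the 33 genes at an unadjusted p under 0.05 (2.41% and 5.14% of all genes). Leaving out sample 3 or 4 of Shank3-HM instead gave medians of 0.031 and 0.14. Without sample 2 of Shank3-HM the differences of that group were 0.12 for Mbp, 0.16 for Mog, 0.0066 for Sox10, 0.18 for Myrf and 0.25 for Mobp. Without sample 3 of Shank3-HM they were 0.11 for Mbp, 0.11 for Mog and 0.0088 for Bcas1. Without sample 3 of Shank3-HT those of Shank3-HT were 0.14 for Mbp, 0.037 for Mog and 0.13 for Bcas1. They were then 0.18 for Tmem88b, 0.16 for Cldn11 and 0.21 for Mobp. None passed in any of these fits. In Shank3-HM cortex 2 of 10 astrocyte, 0 of 10 microglia and 1 of 8 endothelial genes had a difference above 0 (medians -0.081, -0.090 and -0.12). The summed astrocyte genes were 138821 to 172031 there and 154706 to 185560.0 in WT cortex, the microglia genes 10378 to 11289.9 and 10618 to 13043, and the endothelial genes 6422 to 7509 and 6953 to 8836. The astrocyte sum of samples 1, 2, 3 and 5 of Shank3-HM was below every WT sample. In Shank3-HT cortex 5 of 10 astrocyte, 2 of 10 microglia and 2 of 8 endothelial genes had a difference above 0 (medians 0.007, -0.047 and -0.035). No gene of these lists was called, and their part in the result was not tested. No member separated from WT in either group, where 0.630% and 0.800% of all genes did.

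In Shank3-HM hippocampus the direction was the other one. Of the 33 differences 27 were below 0, with a myelin median of -0.081 (-0.050 without sample 3 of that group), and 7 genes had an unadjusted p under 0.05 with a lower level in the mutant, where 1.86% of all genes did. These were Evi2a, Aspa, Olig2, Trf, Car2, Ppp1r14a and Cspg4. Evi2a was 598, 537, 478, 580.0 and 585 in Shank3-HM, all below the WT values of 615 to 683, and was the only member that separated from WT, where 0.736% of all genes did. Aspa was 408, 454, 466, 382 and 411 in WT and 385, 368, 282, 389 and 334 in Shank3-HM hippocampus. Olig2 was 625, 619, 551, 617 and 629.6 in WT and 534, 482, 523, 618 and 496 in Shank3-HM hippocampus. Aspa and Olig2 overlapped WT, Olig2 through its sample 4. The differences were -0.23 ± 0.069, -0.28 ± 0.096 and -0.20 ± 0.073 (adjusted p = 0.920, 0.920 and 0.920).

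Mbp in Shank3-HM hippocampus was 68020.4, 66251, 64326, 77919.6 and 64495. Mog was 1361, 1283, 1188, 1439 and 1026. Sox10 was 1184, 1197, 998, 1239 and 1092. Apart from sample 4 the Mbp values lay below all WT values, and Mog and Sox10 overlapped WT. The differences were -0.081 ± 0.058, -0.069 ± 0.091 and -0.090 ± 0.080 (95% intervals -0.20 to 0.041, -0.26 to 0.12 and -0.26 to 0.079). Without sample 4 of Shank3-HM that of Mbp was -0.13, and without sample 3 that of Sox10 was -0.043. Pdgfra was 1645, 1797, 1755, 1759.8 and 1665 in the same samples. Cspg4 was 522, 627, 668, 638 and 631. Pdgfra lay among the WT values or above them, and Cspg4 was below every WT sample in 3 of 5. Gpr17 was 1525, 1544, 1655, 1724 and 1749. Bcas1 was 4375, 3849, 3909, 4506 and 4019. Both overlapped WT. Cspg4 was -0.19 ± 0.080 against WT, whereas Pdgfra and Gpr17 were 0.080 ± 0.078 and 0.065 ± 0.070, and Bcas1 was -0.082 ± 0.055. The precursor genes thus did not share a direction. Summed microglia genes were 10047 to 10526 in Shank3-HM and 10303 to 11727 in WT hippocampus. The astrocyte sums were 135093 to 143060 and 119264 to 145150, and the endothelial sums 5638 to 6918 and 5821 to 6809. Their part in the result was not tested.

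In Shank3-HT hippocampus the myelin median was -0.014, with 11 of 29 genes above and 18 below 0, and its sign turned with single samples, from -0.055 without sample 1 to 0.019 without sample 5 of Shank3-HT. Mbp was 75872, 68867, 77670.5, 68102 and 68951 in Shank3-HT. Mog was 1508, 1258, 1401, 1151 and 1135. Sox10 was 1453, 1061, 1214, 1224 and 1083. All overlapped WT, with differences of -0.0038 ± 0.058, -0.033 ± 0.091 and -0.015 ± 0.080. Pdgfra was 1712, 1690.5, 1936, 1733 and 1411 in the same samples. Cspg4 was 707, 556, 595, 613 and 651. Of the precursor genes Cspg4 alone had samples below every WT sample. Gpr17 was 1533, 1446, 1698, 1628 and 1758. Bcas1 was 4162, 4268, 4540.5, 4105 and 4255. In the order Pdgfra, Cspg4, Gpr17 and Bcas1 the differences were 0.050 ± 0.078, -0.17 ± 0.080, 0.040 ± 0.070 and -0.034 ± 0.055. The genes with the smallest p were Ppp1r14a, a phosphatase inhibitor gene, at -0.31 ± 0.099, Cspg4, and Trf at -0.17 ± 0.087 (adjusted p = 0.926 for each). Ppp1r14a was 211, 226, 171, 203 and 210.3 in WT and 169, 159, 174, 175 and 146 in Shank3-HT hippocampus, and Trf was 6646, 6326, 6245, 5254 and 5588 in Shank3-HT. Ppp1r14a reached the WT range only through WT sample 3, and Trf overlapped more widely. No member separated from WT, where 0.797% of all genes did. The summed choroid plexus genes were 1319.7 to 34030.0 in Shank3-HT, 6216 to 61121 in Shank3-HM and 3166 to 124065 in WT hippocampus, and their part in the Trf values was not tested.

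**Figure D4:**
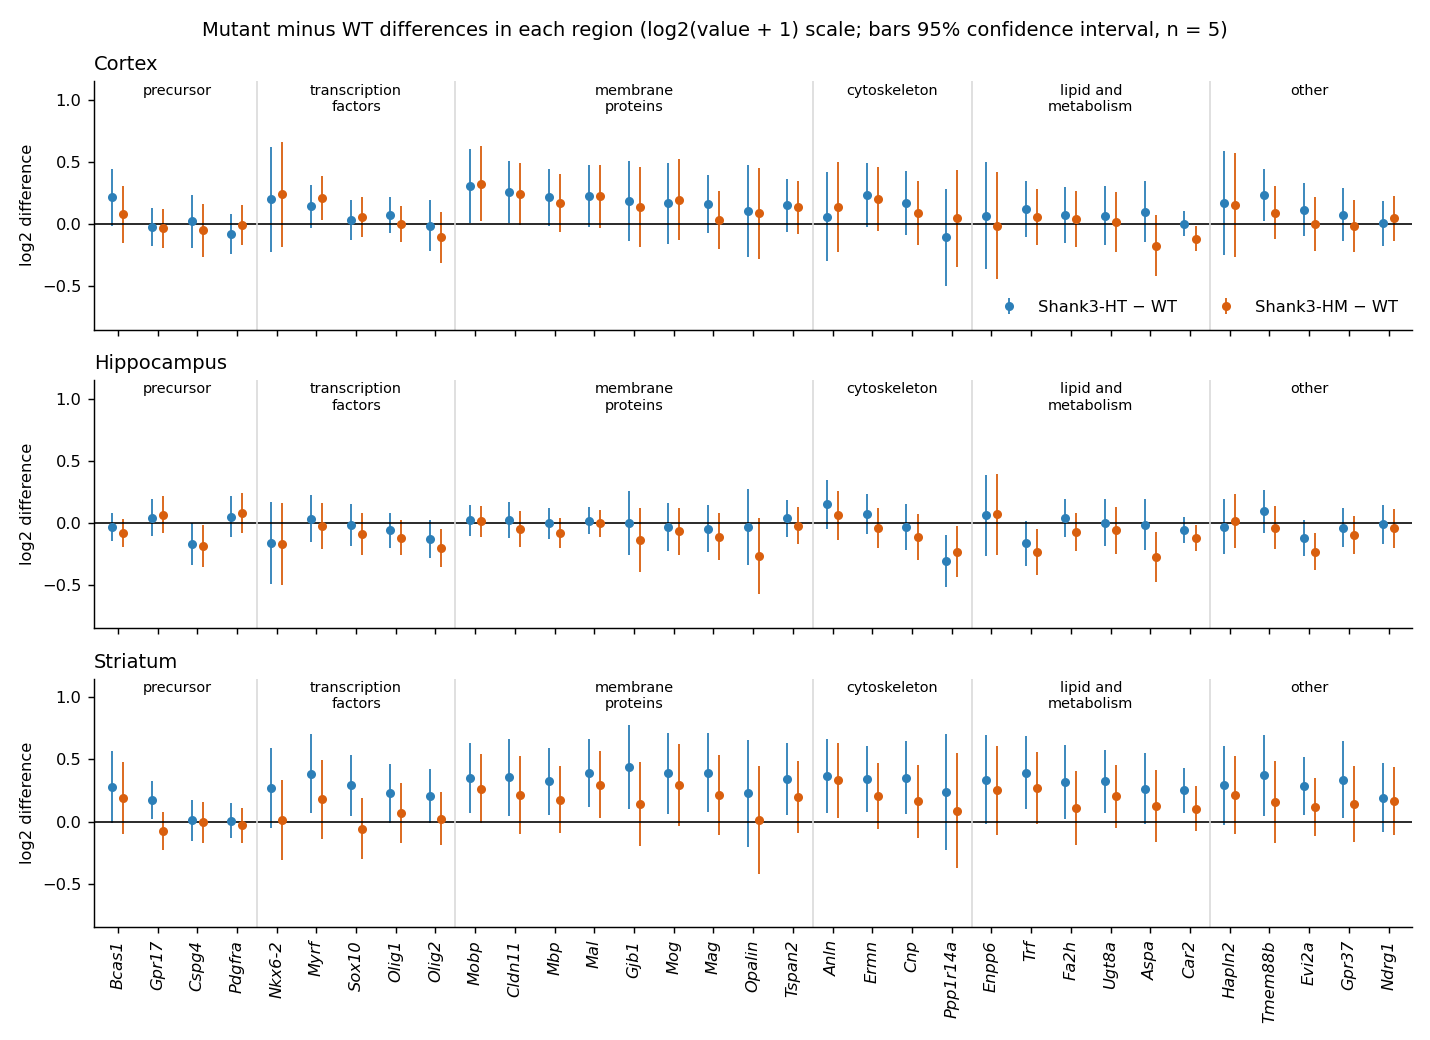
Shank3-HT minus WT and Shank3-HM minus WT differences of the 33 genes in each region, on the log2(value + 1) scale, with bars the 95% confidence interval (n = 5 per group). In striatum all Shank3-HT points lie above 0 and most Shank3-HM points lie between 0 and the Shank3-HT points, cortical points are mostly a little above 0, hippocampal points lie around or below 0, and no gene passed the adjusted threshold.

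Whether the genotype difference itself differed between regions was tested with interaction contrasts in the fit of all 45 samples. None of the 33 genes passed in any of the 6 contrasts, where the share of all genes that passed was 0%, 0% and 0% for Shank3-HT (striatum against cortex, striatum against hippocampus, hippocampus against cortex) and 0.0539%, 0.0718% and 0% for Shank3-HM. Between striatum and hippocampus 14 of the 33 genes had an unadjusted p under 0.05 for Shank3-HT and 4 for Shank3-HM, where 5.60% and 5.37% of all genes did. Between striatum and cortex the count was 1 for each genotype (3.46% and 5.42% of all genes), and between hippocampus and cortex it was 0 for each (3.35% and 4.45%). The Shank3-HT contrast between striatum and hippocampus was furthest from 0 for Trf, 0.56 ± 0.17 (95% interval 0.21 to 0.91, adjusted p = 0.749), and was 0.31 ± 0.092 for Car2 and 0.41 ± 0.14 for Evi2a, the 3 genes with the smallest p. For Shank3-HM the contrast was 0.51 ± 0.17 for Trf (95% interval 0.15 to 0.86), 0.23 ± 0.092 for Car2 and 0.35 ± 0.14 for Evi2a. The myelin median of the striatum against hippocampus contrast was 0.33 for Shank3-HT and 0.26 for Shank3-HM (0.16 without sample 2 of Shank3-HM striatum), and the precursor median was 0.16 and 0.039. A region in which the mutant effect on these genes differs was therefore not detected at the adjusted threshold.

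The precursor and myelin levels of each sample were put on a common footing as the mean log2(value + 1) of the 4 precursor genes minus that of the 29 myelin genes. Only changes in this difference carry meaning, because its zero depends on gene lengths. Its group mean was 0.61 ± 0.13 (SD, n = 5) in WT cortex, 0.036 ± 0.070 in WT hippocampus and -0.23 ± 0.096 in WT striatum. In the mutants it was 0.52 ± 0.12 and 0.52 ± 0.12 in cortex (Shank3-HT and Shank3-HM), 0.032 ± 0.087 and 0.099 ± 0.12 in hippocampus, and -0.43 ± 0.18 and -0.37 ± 0.14 in striatum. The 3 regions did not overlap across the 45 samples, whatever the genotype. Within a region every mutant group overlapped WT. Relative to WT the Shank3-HT striatum mean differed by -0.20, with sample values of -0.47, -0.48, -0.69, -0.22 and -0.29 against -0.23, -0.12, -0.36, -0.15 and -0.28 in WT. Without Bcas1, left out after its regional values were seen, the WT striatum and hippocampus means differed from the WT cortex mean by -1.16 and -0.73, against -0.84 and -0.57 with it.

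**Figure D5:**
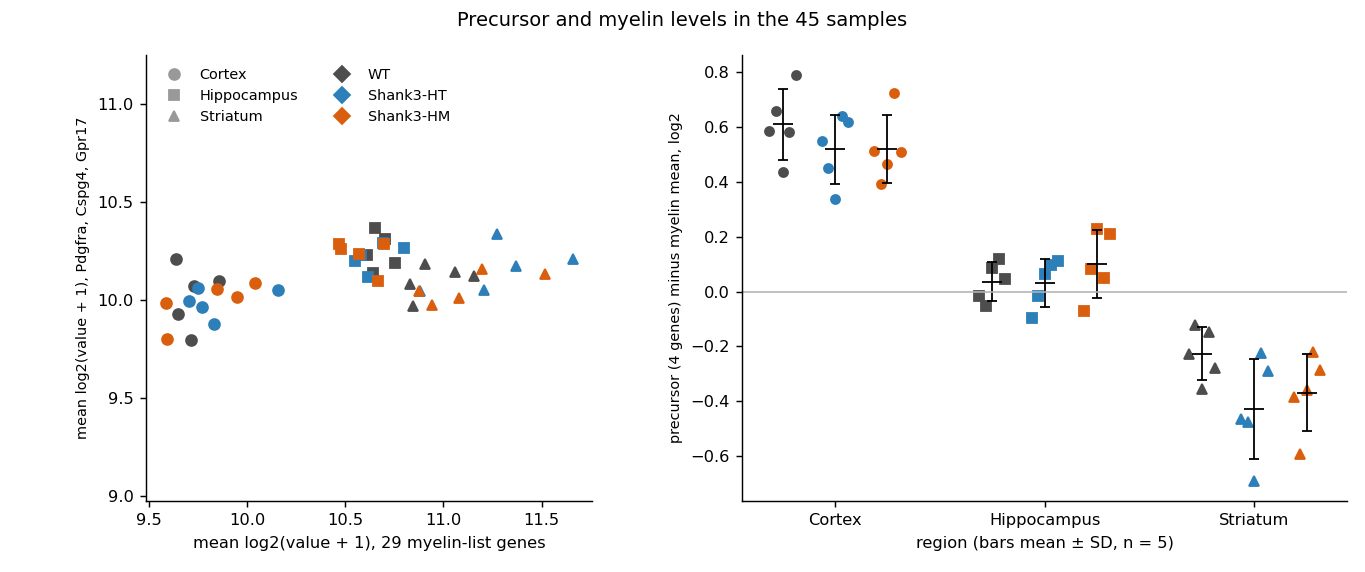
Left, mean log2(value + 1) of Pdgfra, Cspg4 and Gpr17 against that of the 29 myelin genes in each of the 45 samples, on axes of equal scale. Right, mean of the 4 precursor genes minus that of the myelin genes for each sample, with bars the mean ± SD (n = 5). Samples spread over 2 log2 units of myelin level but little more than 0.5 of precursor level, and the difference steps down from cortex to hippocampus to striatum in every genotype.

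The median spread between samples of 1 group was wider for myelin than for precursor genes, above all in striatum and cortex. The median SD within groups in striatum, on the log2(value + 1) scale, was 0.26 for the myelin genes and 0.12 for the precursor genes. It was 0.12 for the 10180 genes with a mean at or above that of the lowest member. In cortex the values were 0.20, 0.15 and 0.13, and in hippocampus 0.14, 0.12 and 0.12. Bcas1 differed from the other precursor genes, with an SD of 0.25 in striatum and 0.19 in cortex, near the myelin medians. Among the myelin genes, Sox10 and Olig1 had only 0.12 and 0.11 in cortex. A spread of this size left 95% intervals of the genotype differences that reached from -0.23 to 0.78 over the 33 genes in Shank3-HT striatum, so moderate changes of single genes were not detectable with 5 samples per group.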

How the data were processed

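RNA from 45 samples (3 regions, 3 genotypes, 5 samples per group) had been sequenced from stranded, poly(A)-selected libraries. The authors quantified transcripts with Salmon against GRCm38, summed them to genes and deposited DESeq2-normalized counts with decimals, here treated as a signal that was scaled for library depth by the authors. The submitters' processing notes name Salmon 1.1.0, R 3.6.2 and DESeq2 1.26.0. Whole reads could not be recovered from the values, so read depth is unknown and no count model was used.

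Values were analysed as log2(value + 1) with limma 3.58.1 (R 4.3.3, two-sided, trended variance prior), with genes of a mean of at least 10, and the Benjamini-Hochberg adjustment ran over every gene in the fit (16507 in cortex, 16571 in hippocampus, 16482 in striatum and 16708 over all samples) at a threshold of 0.05. Genotypes were compared in a fit of the 15 samples of each region, and WT regions and interactions in a fit of 45 samples in 9 groups. Replicates are separate samples by their labels, which do not name the mice, so p-values measure only the spread between these samples. The scripts were tested on simulated data. Ensembl identifiers were named with GENCODE tables (18120 of 18135 matched). Members and gene lists were chosen with earlier results of these data known. The named genes were the 4 precursor genes, Mbp, Mog and Sox10 with values by sample, up to 3 further members per comparison with the smallest p, and up to 2 genes of each further list, those with the smallest adjusted p, some of which are not reported here. Alternatives were another pseudocount, filter, variance prior, quantile normalization, fits of 2 groups, the replicate number as a block, and each sample left out in turn.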

Additional observations from a re-analysis of the deposited data

Results flagged for a closer look

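Of 207 groups of 5 samples examined, 12 held 1 sample whose gap to the nearest other sample took up more than 0.71 of the group range (Dixon's 95% criterion), and chance alone flags about 1 in 20. Sample 3 of Shank3-HT cortex accounted for 4 of them. Its normalized count was 1021 against 581 to 692 in the other 4 samples for Mog, 2133 against 1403 to 1608 for Cldn11 and 346 against 212 to 250.1 for Aspa, and its mean log2 level of the 29 myelin genes was 10.15 against 9.70 to 9.83. Its summed striatal neuron genes stood at -0.375% of the way to striatum, and its summed choroid plexus genes were 1135, the highest of the 15 cortical samples, against 53.6 to 211 in the rest of its group.

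In hippocampus the Mbp count of sample 4 of Shank3-HM was 77919.6 against 64326 to 68020.4 in the rest of its group, and the Cspg4 count of sample 1 of that group was 522 against 627 to 668. Sample 1 of Shank3-HT stood apart for Car2 (4656 against 4031 to 4206) and Ermn (2309 against 2067 to 2127). Among WT samples, sample 1 was low for Pdgfra (1359 against 1682 to 1747), and sample 3 was low for Olig2 (551 against 617 to 629.6) and high for Mal (6542 against 6178 to 6276). In striatum sample 2 of Shank3-HM was high for Evi2a (1057 against 709 to 763). WT sample 1 of hippocampus also differed from the other 4 WT samples in summed marker genes, with further precursor genes at 14976 against 19782 to 22126, astrocyte genes at 119264 against 136014 to 145150.0, hippocampal neuron genes at 24183 against 28959 to 32636 and cortical pyramidal genes at 77986 against 56649 to 68943. Without it the Pdgfra difference in hippocampus was -0.015 in Shank3-HT and 0.014 in Shank3-HM, and that of Trf in Shank3-HT was -0.11. The causes were not tested.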

How the results depend on the processing

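No member passed the adjusted threshold in any genotype or interaction comparison under any alternative, and the counts for WT regions stayed within 1.5 times except with the 3 genotypes averaged, which gave 29 called for striatum against hippocampus (72% of all genes) and myelin medians of 0.56 there and -0.86 for cortex against hippocampus. The precursor minus myelin level relative to WT cortex was -0.82 in WT hippocampus and -1.09 in WT striatum with medians over genes, and -0.73 and -1.16 without Bcas1, an alternative chosen after seeing the data. Quantile normalization turned the Mbp difference of Shank3-HT hippocampus to 0.040, and without the trended prior the Pdgfra call between striatum and hippocampus was lost. Samples with the same replicate number did not correlate above 0.1 in every pair of any 2 groups. Between regions of 1 genotype, however, the sample of the same number was often the best match. This held for 4 of 5 samples between WT striatum and WT hippocampus, with a median correlation of 0.16 against -0.043 for other numbers. The count ran from 1 of 5 (Shank3-HM cortex with either other region) to 4 of 5, and between genotypes of 1 region from 0 to 3 of 5. Whether equal numbers mark the same mouse was not tested. With the number as a replicate block 0 members were called in each genotype comparison, with 7, 4, 2, 8, 26 and 6 at an unadjusted p under 0.05 (Shank3-HT and Shank3-HM of cortex, hippocampus and striatum), against 3.28, 6.65, 6.2, 5.74, 9.16 and 9.05% of all genes, and 32, 31 and 21 for the WT regions in the order cortex against hippocampus, striatum against cortex and striatum against hippocampus (49.9, 61.6 and 58.7% of all genes). Leaving out 1 sample at a time gave 6 to 28 members at an unadjusted p under 0.05 in Shank3-HT striatum (5.04 to 10.9% of all genes), 0 to 8 in Shank3-HT cortex (2.09 to 3.71% of all genes) and 4 to 9 in Shank3-HM hippocampus (3.55 to 6.97% of all genes).

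Leaving out 1 sample also turned the sign of small differences, none of which passed the test. In Shank3-HT cortex they ran from -0.069 to 0.10 (Cspg4) and -0.070 to 0.020 (Gpr17), and in Shank3-HM cortex from -0.067 to 0.037 (Pdgfra), -0.14 to 0.033 (Cspg4) and -0.080 to 0.010 (Gpr17). In Shank3-HT hippocampus they ran from -0.032 to 0.015 (Mbp), -0.091 to 0.011 (Mog), -0.085 to 0.029 (Sox10), -0.015 to 0.11 (Pdgfra) and -0.063 to 0.0037 (Bcas1), and for Mog in Shank3-HM hippocampus from -0.12 to 0.0023. In Shank3-HT striatum they ran from -0.048 to 0.044 (Pdgfra) and -0.037 to 0.047 (Cspg4), in Shank3-HM striatum from -0.17 to 0.023 (Sox10), -0.059 to 0.00061 (Pdgfra) and -0.051 to 0.033 (Cspg4), and for WT striatum against cortex from -0.010 to 0.054 (Pdgfra) and -0.059 to 0.11 (Cspg4).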

Other observations

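In WT cortex against WT hippocampus the further myelin list had 21 of 30 genes lower and 0 higher in cortex (median -0.62), led by Efnb3 (-1.85 ± 0.14) and Smco3 (-1.46 ± 0.15). The cholesterol synthesis genes ran the other way, with 14 of 22 higher and 0 lower in cortex (median 0.31). The further precursor genes split into 4 higher and 5 lower, with Pcdh15 (1.37 ± 0.14) and Susd5 (1.03 ± 0.11), and 5 of 10 premyelinating genes were lower. Gfap, the filament gene of astrocytes, was -2.54 in cortex, while Aldh1l1, another astrocyte gene, was 0.92. Summed over the whole astrocyte list, levels were 154706 to 185560 in WT cortex and 119264 to 145150 in WT hippocampus. Of 10 neuron genes 7 were higher in cortex, of 10 microglia genes 1, and of 8 endothelial genes 4 were higher and 1 lower. Of 8 hippocampal neuron genes 6 were lower in cortex.

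In WT striatum against WT hippocampus 15 of the 30 further myelin genes were higher and 1 lower (median 0.23). Klk6, a protease gene of mature oligodendrocytes, was 3.24 ± 0.41 higher in striatum. Pex5l, which neurons also express, was the lower gene, at -0.83 ± 0.086. Of 15 further precursor genes 3 were higher and 6 lower, with Cacng4 (3.05 ± 0.11) and Tnr (-0.60 ± 0.098), and of 10 premyelinating genes 0 were higher and 2 lower. Cholesterol synthesis had 2 higher and 13 lower in striatum, with Sqle (-0.69 ± 0.088) and Srebf2 (0.35 ± 0.050). All 10 microglia genes were higher in striatum (median 0.31), and 6 of 10 astrocyte genes were lower and 1 higher.

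In the mutants the further myelin list had medians of 0.099 and 0.074 in Shank3-HT and Shank3-HM cortex and 0.017 and -0.043 in hippocampus, and 0 genes called by limma. Unadjusted p-values under 0.05 were found for 1, 2, 0 and 0 of the 30 genes in the same order, where 2.68%, 5.49%, 5.26% and 4.73% of all genes reached it.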
